A study of Cordyceps militaris with 6 samples.

Results

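The genes described here make up the proteasome and ubiquitin system of Cordyceps militaris, a cultivated insect-pathogenic ascomycete. They were chosen by the product text of the deposited expression table, which had to name a proteasome part, ubiquitin, an F-box, a cullin or SUMO and not a ribosomal protein. Of the 10385 genes in that table, 180 matched, and 179 were kept because the ubiquitin ligase gene CCM_00412 was left out. By the same text they comprised 38 proteasome genes, 23 activating and conjugating enzymes, 70 ligases with their F-box and cullin parts, 22 deubiquitinating enzymes and SUMO proteases, and 26 others such as ubiquitin and SUMO themselves. The roles rest on product text alone, and no gene's function was measured. Of the 179 genes, 6 lay outside the reference annotation and 171 had a mean of at least 1 FPKM (fragments per kilobase of gene, scaled to the depth of the library).

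Ubiquitin is a small protein that is switched on by an activating enzyme (E1), handed to a conjugating enzyme (E2) and attached to a target protein by a ligase (E3). Chains of ubiquitin send the target to the proteasome, whose 19S regulatory particle binds and unfolds it and whose 20S core, a barrel of alpha and beta rings, cuts it up. Cullins are the scaffolds of a large class of ligases in which F-box proteins, held by Skp1, pick the target, while deubiquitinating enzymes take ubiquitin off again. In filamentous fungi the system is known for its part in the turnover of regulators of nutrient use, the clock and development.

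The libraries came from mycelium of the YCC strain after 72 h in shaken liquid culture in the dark, with passages 1 to 6 of repeated subculture represented by 1 library each. The stated purpose of the series is to follow how the transcriptome diverges while a strain degenerates. The later passages 2 to 6 (5 libraries) were set against passage 1 (1 library). All 6 share the strain, the medium and the culture time, and the labels give neither another genotype nor an added agent. No passage has a replicate library, and a passage is a further subculture of the same strain.

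Total counts ran from 9740171 in passage 1 to 13813999 in passage 2. The genes of the system took 1.61% to 1.78% of the counts in passages 2 to 6 and 1.70% in passage 1. The 12 marker genes of growing hyphae (chitin and glucan synthases) were detected in all 6 libraries, at a summed 3498 to 4249 CPM (counts scaled to library depth) in passages 2 to 6 and 7450.1 in passage 1, and 8 of them fell (4 with a trend on gene length removed, as described below) while none of the 12 rose. Of 13 marker genes of conidia (asexual spores), 11 were tested, of which 1 rose and 4 fell (0 and 3 with that trend removed). Of all tested genes 9.4% rose and 14.2% fell. The sums over the 13 conidia markers were 351 to 911 CPM in passages 2 to 6 and 1244 in passage 1. The hydrophobin CCM_03537 was at 0 in all 6 libraries and the conidiation gene CCM_05902 was at 0 in passage 1. The part of these shifts in the results below was not tested, and in such bulk samples fewer cells of a type and less RNA per cell cannot be told apart.

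Proteasome genes were the most abundant class. The median over genes of the mean FPKM in the 6 libraries was 135 for the proteasome, 56.7 for activating and conjugating enzymes, 18.1 for ligases, 19.97 for deubiquitinating enzymes and SUMO proteases, 56.4 for the others and 17.7 for all genes of the table. The 20S core stood at 151 FPKM and the 19S particle at 146 FPKM. CCM_00487, one of several genes with the product text ubiquitin, had the highest mean of all. Its values were 560.0, 828, 827, 920.2, 812 and 843 FPKM in passages 1 to 6, and the same table files it under the ribosome and its small subunit. Genes with the same text include CCM_04094, CCM_01793 and CCM_03469, with means of 263, 52.2 and 2.33 FPKM. CCM_04094 had 161, 288, 232, 278, 260 and 357 FPKM in passages 1 to 6. Classes also differed in gene length, which enters below. The median length was 1.04 kb for the proteasome, 0.624 kb for activating and conjugating enzymes, 1.79 kb for ligases, 2.10 kb for deubiquitinating enzymes and SUMO proteases and 1.40 kb for all genes.

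In the later passages more proteasome genes and conjugating enzymes rose than fell against passage 1, and more deubiquitinating enzymes fell than rose. In the proteasome 11 of 38 genes rose and 5 fell, and among activating and conjugating enzymes 7 of 23 rose while none fell. In contrast, 2 of 22 deubiquitinating enzymes and SUMO proteases rose and 8 fell, and 3 of the 65 tested ligases rose and 10 fell, a balance that turned to 9 and 6 with limma on FPKM. Of the 26 others, 2 rose and 2 fell. Of all 8894 tested genes 9.4% rose and 14.2% fell, so that the 15.4% of ligases that fell were near the background, while 28.9% of proteasome genes and 30.4% of activating and conjugating enzymes rose and 36.4% of deubiquitinating enzymes and SUMO proteases fell. The test was edgeR's quasi-likelihood test of the 5 later libraries against passage 1, two-sided, with Benjamini-Hochberg adjustment at 0.05. Since passage 1 is a single library, it was assumed to vary as the later ones do, and the p-values measure only the spread between these libraries.

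Together, 25 of the 174 tested genes of the system rose and 25 fell, which is 14.4% in each direction. The median log2 difference was 0.35 for the proteasome, 0.41 for activating and conjugating enzymes, -0.25 for deubiquitinating enzymes and SUMO proteases and 0.05 for all tested genes. For ligases it was -0.11, with the opposite sign with the length trend removed (0.13) and on the FPKM scale (0.12), and for the others -0.09, with the opposite sign on the FPKM scale (0.14). In all 50 genes called, the passage 1 value lay outside the range of the 5 later ones. With 1 library against 5, a call nearly requires this, so it is no separate evidence for the calls. The same holds where a lack of overlap is given for single called genes below. Among 8483 genes of the table, all 5 later libraries lay above passage 1 in 35.4% and below it in 33.8%. Untested were 5 F-box genes with few or no counts, and the F-box gene CCM_09491, with no count in passage 1 and 0 to 11 in the later passages, was tested without a call. The ligase median was -0.11 without it too.

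The passage 1 library differed from the others by gene length, with short genes low and long genes high in it, and the classes differ in length in the same way. Over 171 genes of the system the log2 difference had a rank correlation (Spearman's rho) of -0.51 with gene length, and over 8477 genes of the table one of -0.40. These are descriptions over genes that share the same libraries. When a smooth trend on gene length was taken out of each library, 11 genes of the system rose and 18 fell, beside 5.75% and 10.6% of all tested genes; the members' shares, 6.32% and 10.3%, were near these. The proteasome then had 5 genes that rose and 3 that fell with a median of 0.14, activating and conjugating enzymes 2 and 2 with a median of 0.13, ligases 4 and 7 with a median of 0.13, and deubiquitinating enzymes and SUMO proteases 0 and 4 with a median of -0.08. Called both with and without the trend were 23 genes, 8 higher and 15 lower, and no called gene changed sign.

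**Figure D1:**
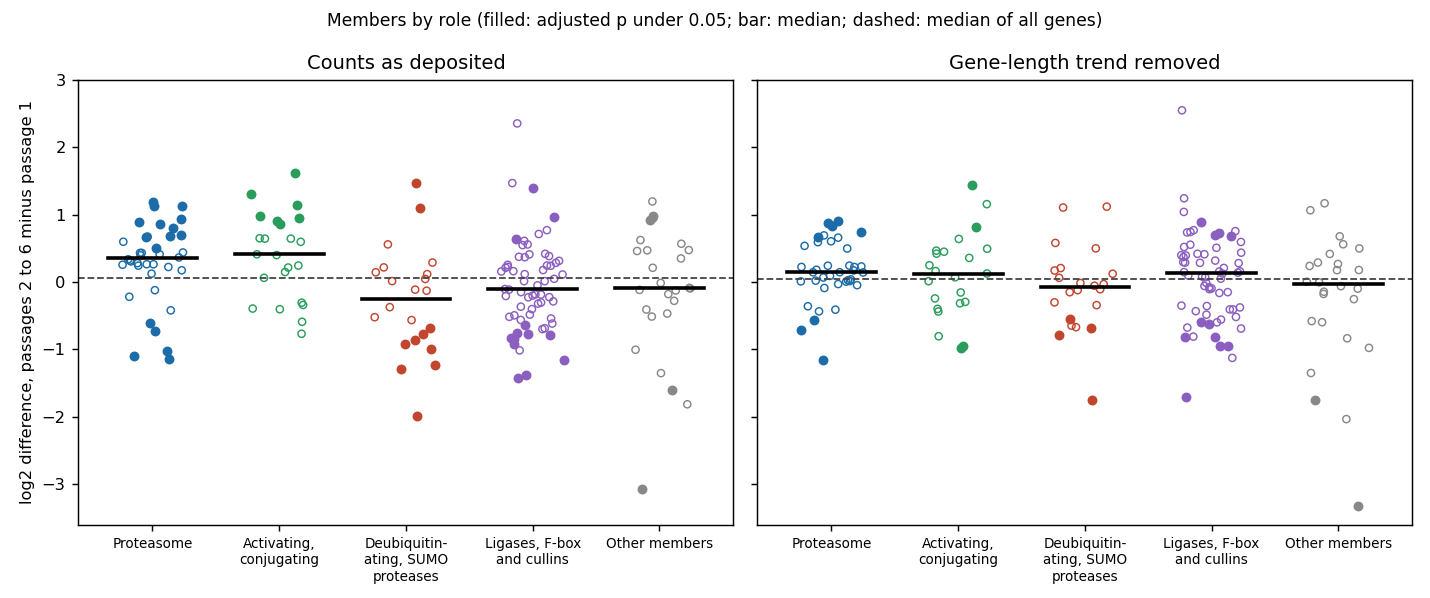
Log2 difference of passages 2 to 6 minus passage 1 for each tested gene, by role, from the counts as deposited (left) and with the gene-length trend removed (right); filled points passed the adjusted threshold, bars are class medians and the dashed line is the median of all genes. The proteasome median of 0.35 and the deubiquitinating median of -0.25 on the left stand at 0.14 and -0.08 on the right; CCM_09491, without a count in passage 1, lies above the axis.

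Scaling mattered for the balance of the calls as well. With limma on log2(FPKM + 1), which keeps the authors' scaling, 56 genes of the system rose and 16 fell, so that 77.8% of the called genes were higher, against 50% with edgeR; the background was 20.1% higher and 8.43% lower of all tested genes. On that scale the median gene of the table was 0.24 higher in the later passages, against 0.05 with edgeR, a shift of 0.185 between the medians that varies from gene to gene. The FPKM printed below keep the authors' scaling, while the log2 differences do not. Without passage 3, 4 or 5 the count of genes that rose with edgeR was 12, 16 and 15, and the proteasome had 6 that rose in each of these fits.

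In the 20S core, 5 of 15 genes rose and none fell. PRE3 (CCM_08753), a catalytic beta subunit that in yeast cuts after acidic residues, had 39.7, 85.4, 107, 118, 102 and 104 FPKM in passages 1 to 6. PUP3 (CCM_06966), a beta subunit without a catalytic site, had 58.3, 128, 169, 169, 143 and 148 FPKM. For alpha type 3 (CCM_07076), part of the outer ring that gates the barrel, the values were 59.9, 109, 136, 144, 123 and 135 FPKM. In each of these 3 genes passage 1 was the lowest library and passage 2 the lowest of the later ones, with no overlap between the groups. PRE3 rose by 1.13 ± 0.192 on the log2 scale (SE, adjusted p = 0.009297), PUP3 by 1.13 ± 0.188 (adjusted p = 0.00874) and alpha type 3 by 0.86 ± 0.174 (adjusted p = 0.0157). With the length trend removed, PRE3 and alpha type 3 remained called at 0.74 and 0.90 (adjusted p = 0.0397 and 0.0201), and PUP3, at 0.66, was not called (adjusted p = 0.0519).

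The alpha subunits PRE6 (CCM_01484) and Y13 (CCM_01709) also rose, by 0.80 and 0.50 (adjusted p = 0.0208 and 0.0447). The call of Y13 was lost without passage 3, 4 or 5, with adjusted p up to 0.0942. The other 10 core genes were not called, with log2 differences from -0.12 to 0.44. Besides PRE3, the catalytic subunits were not called. PRE2 (CCM_02349), the chymotrypsin-like subunit, had 143, 194, 247, 244, 227 and 229 FPKM and a log2 difference of 0.43 ± 0.1595 (adjusted p = 0.0906). Beta type 7 (CCM_02252), the trypsin-like subunit known as PUP1 in yeast, had 140.0, 137, 164, 153, 157 and 152 FPKM and a difference of -0.12 ± 0.141 (adjusted p = 0.554); passage 1 lay within the later range, and on the FPKM scale the sign was positive, at 0.12. Component C5 (CCM_06819), a non-catalytic beta subunit and the most abundant proteasome gene, had 301, 385, 414, 424, 437 and 449 FPKM and was not called at 0.24 (adjusted p = 0.278).

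Summed over the 15 core genes, the CPM were 1326, 1906, 2193, 2215, 2072 and 2114 in passages 1 to 6. Passage 1 was thus the lowest and the later 5 lay close together. These sums are scaled to library depth alone, without the TMM factors of the tests. Those factors were 0.869 in passage 1 and 0.999 to 1.06 later, and they narrow the gap to passage 1. With limma on log2(FPKM + 1) 13 of the 15 rose, and with the length trend removed 2 rose, PRE3 and alpha type 3. Among the later passages the core and the 19S particle had small spreads. The median over genes of the SD of log2 CPM across passages 2 to 6 was 0.104 for the 20S core and 0.087 for the 19S particle, against 0.222 for deubiquitinating enzymes and SUMO proteases, 0.19 for ligases and 0.221 for all genes. Over the 2773 genes of the table with a mean of at least 50 FPKM it was 0.181, and over the 15 core and 13 regulatory genes at that level 0.104 and 0.084.

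In the 19S regulatory particle, 3 of 15 genes rose and 2 fell. Rpn13 (CCM_01049), a receptor for ubiquitin chains, had 64.9, 133, 157, 160.5, 145 and 139.9 FPKM in passages 1 to 6. Non-ATPase subunit 12 (CCM_04881), part of the lid, had 114, 227, 261, 268, 257 and 233 FPKM, and the ATPase Rpt2 (CCM_07130), one of the ring that opens the core, had 149.6, 239, 306, 301, 285 and 297 FPKM. Again passage 1 was below every later library in each of them. They rose by 0.93 ± 0.153, 0.89 ± 0.1597 and 0.69 ± 0.174 on the log2 scale (SE, adjusted p = 0.00835, 0.01104 and 0.0315), and all 3 remained called with the length trend removed. The call of Rpt2 was lost without passage 3, 4 or 5 (adjusted p up to 0.06503).

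The scaffold subunits went the other way. Rpn2 (CCM_06044), which holds Rpn13 on the particle in yeast, had 115, 61.95, 65.9, 74.6, 63.7 and 69.1 FPKM in passages 1 to 6. Rpn1 (CCM_06762), which binds ubiquitin and shuttle proteins, had 126, 88.6, 91.8, 94.96, 90.01 and 84.99 FPKM. For both, passage 1 was above all later libraries. Rpn2 fell by 1.03 ± 0.133 and Rpn1 by 0.73 ± 0.125 on the log2 scale (SE, adjusted p = 0.00464 and 0.00949). At 3.41 and 2.46 kb they are the longest of the 15 genes, and without the length trend their differences were -0.57 (adjusted p = 0.0372) and -0.41 (adjusted p = 0.0621). The other 10 genes of the particle were not called and ran from -0.22 for non-ATPase subunit 3 (CCM_03839) to 0.67 for the partial rpn11 gene (CCM_00130), which stood at 1.1 to 2.69 FPKM. Next to this partial gene lies CCM_00129, also of these 10, with the text 26S proteasome regulatory subunit. It had 148, 228, 227, 238, 239 and 220 FPKM in passages 1 to 6.

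**Figure D2:**
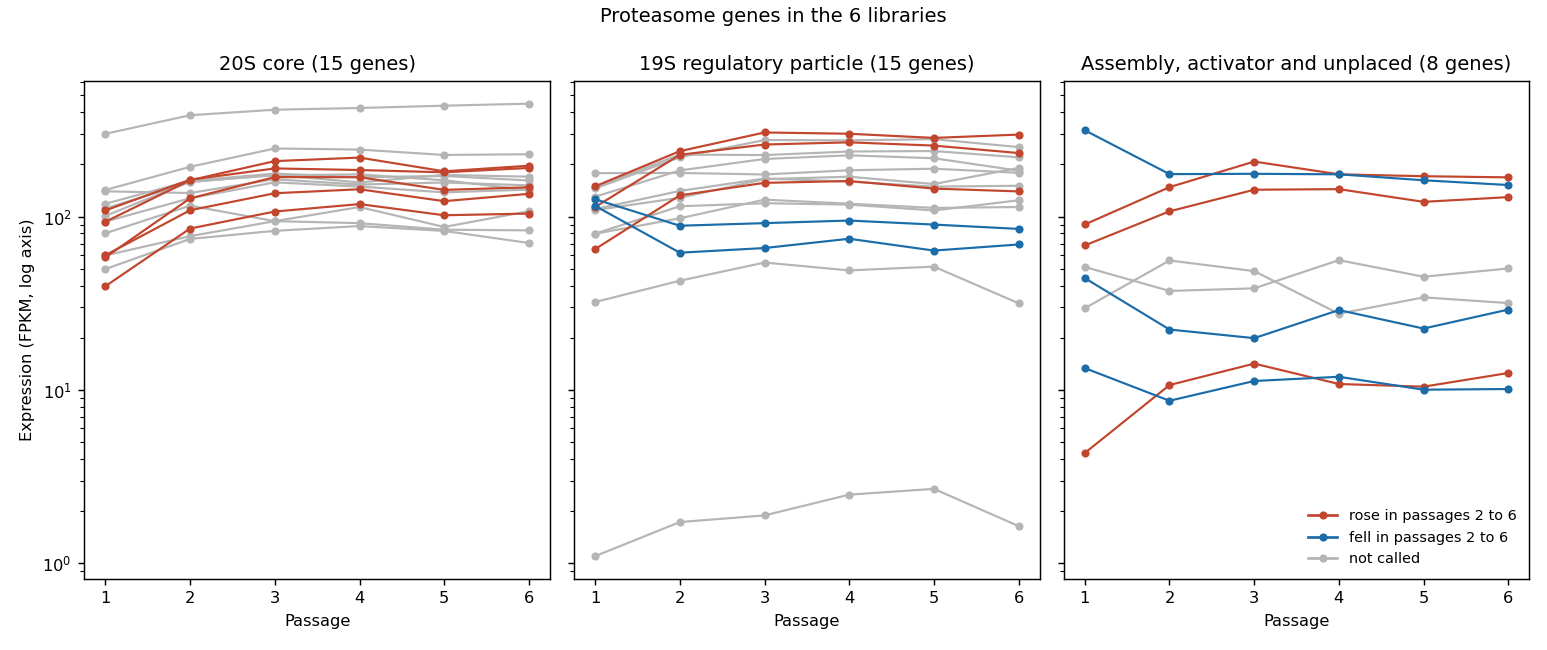
FPKM as deposited (log axis) of the 38 proteasome genes in the libraries of passages 1 to 6, in 3 panels by complex; red lines rose, blue lines fell and grey lines were not called against passage 1. The step lies between passages 1 and 2 in the called genes, and the 20S panel holds no blue line, while 2 long scaffold genes fell in the 19S panel.

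Among the 5 genes of assembly, activation and regulation, 2 rose and 1 fell. Ump1 (CCM_04093), a chaperone that the maturing core destroys, had 68.2, 107, 143, 144, 122 and 129.6 FPKM in passages 1 to 6, and assembly chaperone 3 (TCONS_00005449) had 4.33, 10.7, 14.2, 10.8, 10.45 and 12.5 FPKM. Both were lowest in passage 1 and rose, by 0.67 ± 0.186 and 1.19 ± 0.304 (adjusted p = 0.0403 and 0.0322). Each of these calls was lost without passage 3, 4 or 5 (adjusted p up to 0.07699) and with the length trend removed. Both are short genes, of 0.462 and 0.522 kb. PI31 (CCM_00042), a proteasome regulator first described as an inhibitor of the core, had 44.2, 22.3, 19.9, 28.9, 22.6 and 29.1 FPKM and fell by 1.09 ± 0.223 (adjusted p = 0.0164), with passage 1 above all later libraries. Its difference was -1.16 with the length trend removed (adjusted p = 0.0181).

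For 3 genes the text names a proteasome component without placing it. CCM_01792, with a PCI domain text, carries GO terms of a translation preinitiation complex in the same table, so that its place in the proteasome is uncertain; without it 4 proteasome genes fell. It had 315, 176, 177, 176, 162 and 152 FPKM in passages 1 to 6 and fell by 1.15 ± 0.141 (adjusted p = 0.00441). CCM_01194, also with a PCI text, had 90.2, 148, 208, 176, 171 and 169 FPKM and rose by 0.70 ± 0.186 (adjusted p = 0.0352). These genes with like text thus moved in opposite directions, each without overlap between the groups. They carry different KEGG ortholog numbers, K03254 for CCM_01792 and K03039 for CCM_01194, so the contrast need not be one between parts of the same complex. CCM_03582, a gene of 5.45 kb, fell by 0.61 (adjusted p = 0.0401) and stood at -0.03 once the length trend was taken out (adjusted p = 0.907). The calls of CCM_01194 and CCM_03582 were lost without passage 3, 4 or 5 (adjusted p up to 0.0767).

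Since length and class go together, classes were also compared within length classes. Among genes of 1 to 2 kb the median log2 difference was 0.50 for 14 proteasome genes, of which 5 rose and 1 fell, 0.03 for 32 F-box genes, of which 2 rose and 3 fell, 0.03 for 6 deubiquitinating enzymes and SUMO proteases, with 1 in each direction, and 0.02 for 3858 genes of the table, of which 7.98% rose and 12.9% fell. In this class the 10 regulatory particle genes had a median of 0.50 and 3 of them rose. Among genes under 1 kb the median was 0.40 for 18 proteasome genes and 0.64 for 17 activating and conjugating enzymes, against 0.10 for 10 ligases and 0.44 for 2516 genes of the table. Above 2 kb it was -0.67 for 6 proteasome genes, -0.73 for 12 deubiquitinating enzymes and SUMO proteases and -0.22 for 22 ligases, against -0.37 for 2103 genes of the table. No test was made between these medians.

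**Figure D3:**
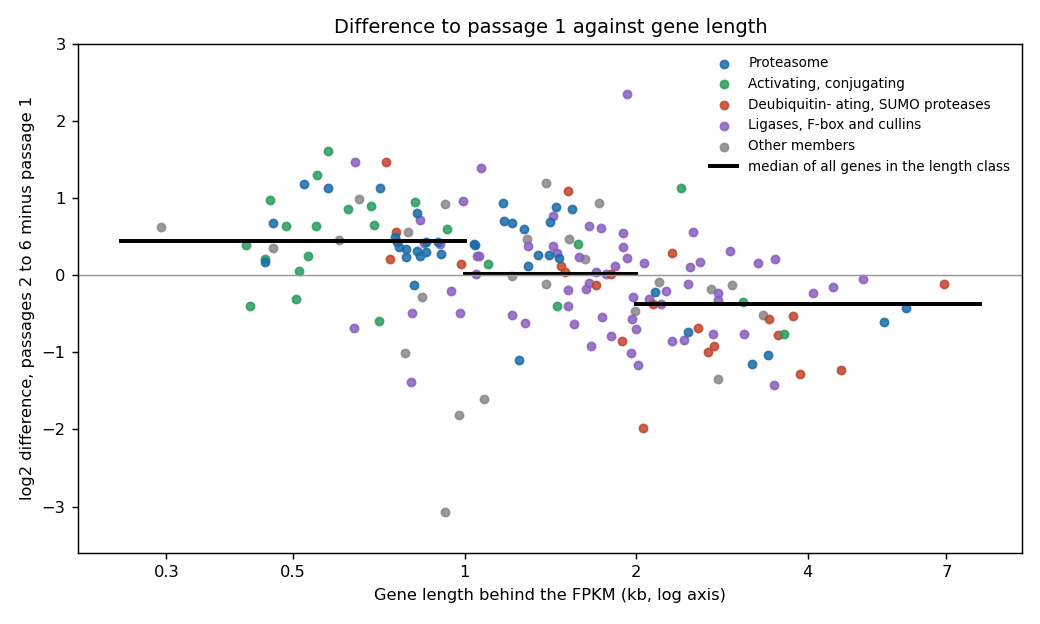
Log2 difference of passages 2 to 6 minus passage 1 (y axis) against the gene length behind the FPKM in kb (x axis, log scale) for the genes of the system, coloured by role; black bars are the medians of all genes in 3 length classes. The bars step down through 0.44, 0.02 and -0.37 with length, and between 1 and 2 kb the proteasome points have a median of 0.50.

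The 2 activating enzymes were not called. The ubiquitin E1 (CCM_07576), the first enzyme of the whole chain of steps, had 201, 157, 226, 197, 201 and 163 FPKM in passages 1 to 6 and a log2 difference of -0.34 ± 0.209 (adjusted p = 0.269), with passage 1 inside the later range. UlaA (CCM_00438), an activating enzyme for a ubiquitin-like protein, was at 0.41 (adjusted p = 0.104).

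Of the 21 E2 genes, which carry activated ubiquitin or a relative of it to the ligase, 7 rose and none fell, with a median log2 difference of 0.60. The count depends on wording, since only genes whose text names a conjugating enzyme were taken. CCM_05364, with the text ubiquitin carrier protein, was placed among the others and fell, as given below. CCM_04209 had 5.7, 22.9, 24.9, 20.6, 20.8 and 14.9 FPKM in passages 1 to 6, CCM_01981 had 31.4, 72.1, 101, 93.7, 100.3 and 93.1 FPKM and CCM_05366 (E2 2) had 38.7, 82.1, 94.7, 97.97, 94.2 and 83.3 FPKM. In all 3 passage 1 was far below the later libraries, which did not overlap with it. The rises were 1.62 ± 0.345, 1.30 ± 0.227 and 0.98 ± 0.178 on the log2 scale (SE, adjusted p = 0.0187, 0.00989 and 0.0115). CCM_04392, with 48.5, 85.4, 104, 122, 112 and 134 FPKM, rose by 0.95 (adjusted p = 0.0349), and CCM_05338, with 3.99, 9.02, 10.2, 8.9, 14.02 and 9.74 FPKM, by 1.14 (adjusted p = 0.0465). CCM_07737 and CCM_04062 rose by 0.90 and 0.87 (adjusted p = 0.0188 and 0.0249). The calls of CCM_04392 (without passage 3, 4 or 5), CCM_05338 (without passage 2, 3 or 4) and CCM_04062 (without passage 3 or 5) were lost with a library left out, at adjusted p up to 0.0757.

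The E2 genes are short, with a median length of 0.576 kb. With the length trend removed, CCM_01981 and CCM_05338 remained called, at 0.82 and 1.44 (adjusted p = 0.04401 and 0.0323). In that fit 2 others fell: MMS2 (CCM_03991), a variant without the catalytic residue that works in DNA repair in yeast, at -0.95 (adjusted p = 0.0498), and the E2-24 kDa gene CCM_07139 at -0.98 (adjusted p = 0.0318). The most abundant E2 gene, CCM_01358, had 159, 268, 246, 215, 258 and 252 FPKM; all later libraries were above passage 1, but it was not called at 0.40 (adjusted p = 0.151), and with the length trend removed its sign was negative, at -0.16.

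Among deubiquitinating enzymes 8 fell and 2 rose (4 and 3 with limma on FPKM). CCM_05698 (a ubiquitin thiolesterase) had 13.5, 4.5, 3.29, 4.18, 4.59 and 3.53 FPKM in passages 1 to 6, CCM_02662 had 89.9, 45.6, 50.2, 47.7, 43.4 and 41.4 FPKM and CCM_03843 had 34.99, 14.5, 16.1, 22.8, 14.9 and 17.1 FPKM. All later libraries lay below passage 1 in these genes. CCM_05698 fell by 1.99 ± 0.231, CCM_02662 by 1.23 ± 0.133 and CCM_03843 by 1.28 ± 0.217 on the log2 scale (SE, adjusted p = 0.00389, 0.00345 and 0.00899). These 3 and CCM_03648, which fell by 0.92 (adjusted p = 0.00555), were the 4 that remained called with the length trend removed, at -1.75, -0.68, -0.78 and -0.55. CCM_03789, with 17.6, 8.98, 12.1, 12.2, 10.6 and 8.62 FPKM, fell by 1.00 (adjusted p = 0.0178), and CCM_02270 and CCM_09140 fell by 0.86 and 0.77 (adjusted p = 0.0336 and 0.0197). CreB (CCM_06926), named after an Aspergillus enzyme of carbon catabolite repression, had 15.1, 10.1, 10.7, 13.2, 10.47 and 11.3 FPKM and fell by 0.68 ± 0.173 (adjusted p = 0.0317). The calls of CreB (without passage 2, 3 or 5) and CCM_02270 (without passage 2, 3, 4 or 5) were lost at adjusted p up to 0.0673.

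The exceptions were CCM_07482, with 5.07, 14.4, 19.7, 17.6, 18.5 and 13.6 FPKM in passages 1 to 6, and CCM_01192, with 3.25, 6.72, 8.26, 11.1, 7.45 and 7.7 FPKM. Both were lowest in passage 1 and rose, by 1.48 ± 0.304 and 1.09 ± 0.312 (adjusted p = 0.0168 and 0.0441); with the length trend removed neither was called, at 1.10 and 1.12 (adjusted p = 0.0526 and 0.0529). The call of CCM_01192 was lost without passage 3 or 5 (adjusted p up to 0.0767). CCM_07482 lies next to the regulatory particle gene rpn-8 (CCM_07481), whose difference was 0.41 (adjusted p = 0.116). The most abundant deubiquitinating enzyme, CCM_06487, had 127, 121, 139, 167, 125 and 140.4 FPKM and was not called at -0.13 ± 0.177 (adjusted p = 0.621), a sign that is positive on the FPKM scale, at 0.11. The SUMO protease CCM_02277 ran through 106, 163, 171, 123, 124 and 67.95 FPKM, with passage 6 the lowest of the 6 libraries, and was at 0.04 (adjusted p = 0.951).

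Among ligases, 9 of the 54 tested F-box genes fell and 3 rose, while with limma on FPKM 5 fell and 7 rose. The shares that fell, 16.7% with edgeR and 9.26% with limma, were near the 14.2% and 8.43% of all tested genes. The shares that rose, 5.56% and 12.96%, were below the 9.4% and 20.1% of all tested genes. The F-box gene CCM_02195 had 132, 63.1, 63.5, 56.4, 60.8 and 47.2 FPKM in passages 1 to 6, CCM_03751 had 65.1, 45.8, 33.2, 35.4, 29.9 and 27.9 FPKM and CCM_06639, the most abundant of the F-box genes that fell, had 231, 161, 148, 157, 127 and 133 FPKM. Passage 1 was the highest library in each. They fell by 1.42 ± 0.178, 1.16 ± 0.248 and 0.92 ± 0.159 on the log2 scale (SE, adjusted p = 0.00449, 0.0188 and 0.00982), and all 3 remained called with the length trend removed. CCM_02035, with 75.6, 53.1, 25.2, 27.2, 25.5 and 39.8 FPKM, fell by 1.39 (adjusted p = 0.04604) and CCM_09075, with 69.7, 48.1, 41.9, 45.95, 50.95 and 41.96 FPKM, by 0.85 (adjusted p = 0.0145). The other 4, CCM_07637, CCM_05666, CCM_04172 and CCM_02486, fell by 0.79, 0.77, 0.76 and 0.63 (adjusted p = 0.01401, 0.0228, 0.023 and 0.0337). Left without passage 3, 4 or 5, CCM_02035 and CCM_02486 were not called, nor was CCM_04172 without passage 4 or 5 (adjusted p up to 0.0865).

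The 3 F-box genes that rose were CCM_09339, with 0.87, 2.17, 2.74, 2.75, 3.12 and 2.75 FPKM in passages 1 to 6, TCONS_00008447, with 11.3, 31.4, 27.3, 21.9, 23.4 and 25.9 FPKM, and CCM_03959, with 18.9, 31.98, 37.1, 36.3, 34.8 and 34.7 FPKM. They rose by 1.39 ± 0.407, 0.96 ± 0.262 and 0.64 ± 0.147 (adjusted p = 0.0474, 0.0381 and 0.0225). Passage 1 was below all later libraries, yet the call of CCM_09339, at the low end of the levels, was lost whichever later library was left out (adjusted p 0.0533 to 0.0887), that of TCONS_00008447 without passage 3 or 5 (up to 0.0706) and that of CCM_03959 without passage 3 (0.0526). CCM_03959 stayed past the threshold with the length trend removed, at 0.73 (adjusted p = 0.0221). The largest fitted difference among ligases with at least 1 FPKM belonged to the F-box gene CCM_03989, with 7.4, 29.1, 40.3, 42.6, 84.3 and 26.6 FPKM, which was at least 2-fold above passage 1 in all 5 later libraries but varied among them and was not called (log2 2.35 ± 0.731, adjusted p = 0.0566).

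Rsp5 (CCM_01092), a HECT ligase that in yeast marks membrane proteins for uptake, was the most abundant ligase, with 416, 263, 274, 289, 262 and 293 FPKM in passages 1 to 6. Every later library was below passage 1, and it fell by 0.83 ± 0.136 on the log2 scale (SE, adjusted p = 0.00827); the difference was -0.52 with the length trend removed (adjusted p = 0.0516). None of the 7 cullins and cullin regulators was called by edgeR, where 2 had an unadjusted p under 0.05, or by DESeq2, while limma on FPKM called 2 as higher, and their median difference was 0.11. One of the 7, CCM_07552, has a cullin text but GO terms of a membrane pore complex, so its role is uncertain. Cullin-3 (CCM_02221), the scaffold of BTB-type ligases, had 15.5, 24.3, 29.4, 31.6, 27.8 and 22.1 FPKM, with passage 1 the lowest, and a difference of 0.56 ± 0.212 (adjusted p = 0.09803). It passed the threshold with the length trend removed, at 0.89 (adjusted p = 0.03004). In that fit all 7 had a positive difference, with a median of 0.43 (0.42 without CCM_07552).

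**Figure D4:**
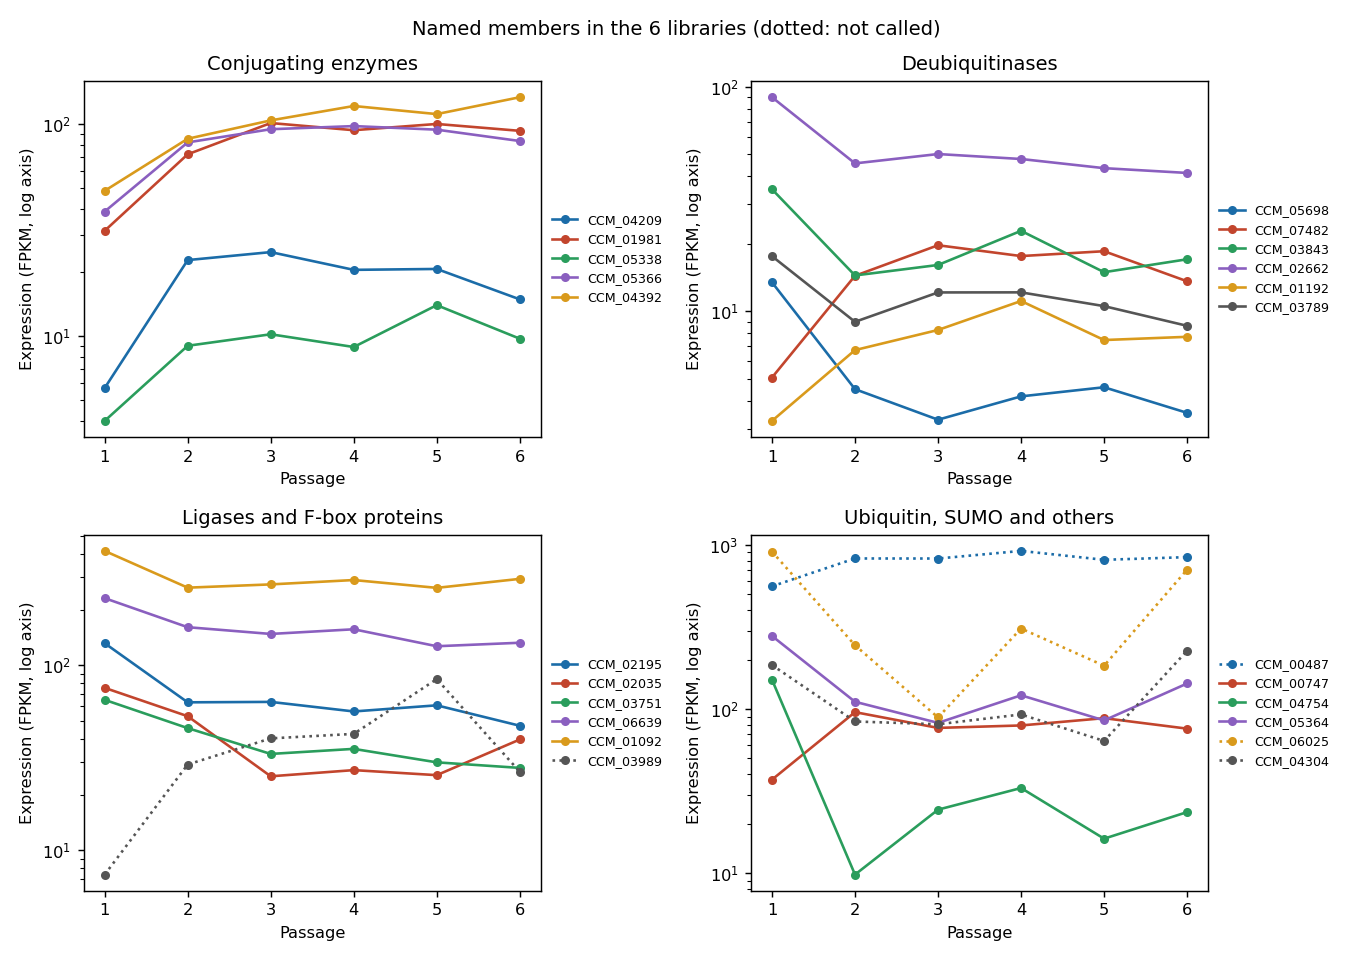
FPKM as deposited (log axis) of named conjugating enzymes, deubiquitinases, ligases and other members in the libraries of passages 1 to 6; solid lines passed the threshold against passage 1 and dotted lines did not. The 5 E2 genes lie lowest in passage 1, while CCM_06025 and CCM_04304 are high in passages 1 and 6 and low between.

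CCM_00487, the abundant gene with the text ubiquitin and ribosomal pathway terms (levels above), did not pass the threshold. It had a log2 difference of 0.35 ± 0.142 (adjusted p = 0.114), which was -0.18 with the length trend removed, so its sign depended on that step. SUMO (CCM_00747), the related modifier, had 37.1, 95.7, 76.7, 79.4, 87.99 and 75.9 FPKM in passages 1 to 6 and rose by 0.92 ± 0.2103 (adjusted p = 0.0228). The other gene with a SUMO text, CCM_06633, was at 0.62 (adjusted p = 0.0965). CCM_04564, a gene of the ubiquitin supergroup, had 8.48, 20.3, 21.8, 18.8, 22.03 and 16.5 FPKM and rose by 0.98 (adjusted p = 0.0352), a call that held only without passage 6 when a library was left out (adjusted p up to 0.0693 otherwise). Neither rise was called with the length trend removed, at 0.68 and 0.56 (adjusted p = 0.0686 and 0.182).

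The largest call in the system was a fall. CCM_04754, a ubiquitin-like protein of 0.924 kb, had 151, 9.79, 24.4, 33.01, 16.2 and 23.5 FPKM in passages 1 to 6. CCM_05364, a ubiquitin carrier protein, had 279, 111, 82.3, 121, 85.2 and 143 FPKM. Passage 1 was far above every later library in both. They fell by 3.08 ± 0.428 and 1.61 ± 0.271 on the log2 scale (SE, adjusted p = 0.00546 and 0.00899), and with the length trend removed the differences were -3.32 and -1.76 (adjusted p = 0.00796 and 0.0103).

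A pair of abundant genes had its lowest values in passages 2 to 5. CCM_06025, named in the text as a ubiquitin-binding protein But2, ran through 911, 245, 88.9, 309.6, 184 and 708 FPKM in passages 1 to 6, and CCM_04304, a ubiquitin-like protein, through 185, 83.99, 80.8, 92.7, 63.9 and 227 FPKM. In CCM_06025 all later libraries were below passage 1, with passage 6 the nearest, and in CCM_04304 passage 6 was above passage 1, so that the groups overlapped. Neither was called, at -1.81 ± 0.8004 and -1.01 ± 0.5903 (adjusted p = 0.138 and 0.249). The summed CPM of the conidia markers ran in a like order, at 1244, 497, 391, 714, 351 and 911 in passages 1 to 6. Single markers differed. Of the 12 with a mean of at least 1 FPKM, 5 were at least 2-fold higher in passage 6 than in passages 2 to 5. All 5 later libraries lay above passage 1 in 4 of these 12 and below it in 5. The part of the markers in the values of this pair was not tested.

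Outside the rule, 66 further genes of the pathway were looked up by product text. Of the 64 tested, 7 rose and 14 fell (14 and 9 with limma on FPKM). These are 10.9% and 21.9%, beside 9.4% and 14.2% of all tested genes. Of 38 tested RING, HECT and U-box genes, which hold the catalytic parts of most ligases, 1 rose and 12 fell. Their median log2 difference was -0.34. The shares, 2.63% and 31.6%, were near the 2.66% and 31.3% of the 2103 genes of the table over 2 kb. The list's median length was 2.24 kb. With the length trend removed 2 rose and 7 fell, with a median of -0.32. These are 5.26% and 18.4%, beside 5.75% and 10.6% of all tested genes. With limma on FPKM 5 rose and 8 fell, with a median of -0.10. There the shares were 13.2% and 21.1%, beside 20.1% and 8.43%. The RING gene CCM_03027 had 46.9, 5.53, 9.86, 11.4, 9.3 and 10.3 FPKM in passages 1 to 6 and fell by 2.59 ± 0.278 (adjusted p = 0.00345); the RING and UBP gene CCM_05063 had 68.1, 194, 283, 252, 259 and 269.6 FPKM and rose by 1.64 ± 0.235 (adjusted p = 0.00592). In both, passage 1 was outside the later range, on opposite sides. Skp1 (CCM_02669), the adaptor that holds F-box proteins, had 238, 531, 501, 461, 511 and 470.4 FPKM and rose by 0.81 (adjusted p = 0.0179), though without the length trend it was at 0.49 and not called (adjusted p = 0.0883). The NEDD8-activating enzyme (CCM_02249), which starts the modification that turns cullins on, fell by 0.74 (adjusted p = 0.01998).

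Of the 6 COP9 signalosome genes, a complex that takes NEDD8 off cullins, subunits 5 (CCM_02582) and 6 (CCM_04188) rose, by 0.72 and 0.95 (adjusted p = 0.0351 and 0.0139). The 26S protease subunit 6A (CCM_00756), 1 of 4 ATPase genes of the regulatory particle outside the rule, rose by 0.66 (adjusted p = 0.0238). The Cdc48 cofactor NPL4 (CCM_07054) fell by 0.93 (adjusted p = 0.0115), the UBX gene CCM_06965 rose by 1.00 (adjusted p = 0.00899), and the anaphase-promoting complex subunit Apc5 (CCM_06532) rose by 1.00 (adjusted p = 0.0135). The calls of CCM_02582 and CCM_00756 were lost without passage 3, 4 or 5 and that of CCM_02582 also without passage 2 (adjusted p up to 0.0709). With the length trend removed, CCM_02582 and Apc5 were not called, at 0.54 and 0.41 (adjusted p = 0.104 and 0.1399).

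Passage by passage, with 1 library against 1, no test was possible, and the 5 comparisons share passage 1. Over the 171 genes of the system with a mean of at least 1 FPKM, 12 were at least 2-fold higher and 13 at least 2-fold lower in passage 2 (9.96% and 10.9% of 8483 genes of the table), 15 and 18 in passage 3 (12.6% and 13.4%), 12 and 11 in passage 4 (10.6% and 9.97%), 16 and 18 in passage 5 (12.0% and 13.4%) and 14 and 13 in passage 6 (12.1% and 10.8%). In each passage and direction the system's share was below that of the table. The median log2 difference of the proteasome was 0.31, 0.43, 0.37, 0.46 and 0.33 in passages 2 to 6, and that of activating and conjugating enzymes 0.47, 0.48, 0.37, 0.53 and 0.43. For ligases it was -0.14, -0.12, -0.01, -0.11 and -0.03, and for deubiquitinating enzymes and SUMO proteases -0.29, -0.24, -0.20, -0.22 and -0.57, against -0.01 to 0.04 for all genes.

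All 5 later libraries lay above passage 1 in 69 of the 171 genes (35.4% of all 8483 genes) and below it in 57 (33.8%). By class, 27 proteasome genes lay above and 8 below, 13 and 5 activating and conjugating enzymes, 16 and 24 ligases, and 3 and 11 deubiquitinating enzymes and SUMO proteases. Passage 6 was at least 2-fold above the mean of passages 2 to 5 in 3 genes of the system (4.36% of all genes) and 2-fold below in 1 (2.12%). They were CCM_06025 (log2 1.92), CCM_04304 (1.52) and the F-box gene CCM_00259 (1.09) above and the SUMO protease CCM_02277 (-1.07) below, named after their values were seen.

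By edgeR no gene was called for a trend over the passages. With passage number as a numeric term, edgeR's quasi-likelihood test called 0 genes of the system over passages 1 to 6, beside 0.0% of 8758 tested genes, and 0 over passages 2 to 6, beside 0.0% of 8742. At an unadjusted p under 0.05 there were 13 genes of the system and 1129 of all genes over passages 1 to 6, and 9 and 524 over passages 2 to 6. DESeq2 called 0 genes of the system in either trend.

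The authors' deposited tables of each later passage against passage 1 list genes with at least a 2-fold difference and an FDR under 0.05, from 1 library against 1. Of the genes of the system, 59 appear in at least one of the authors' deposited tables and 16 in all 5, and the numbers listed are 28, 42, 33, 37 and 35 for passages 2 to 6. These are 15.6%, 23.5%, 18.4%, 20.7% and 19.6% of the 179 genes, slightly below the 18.2%, 24.1%, 19.3%, 21.9% and 21.1% of the table that the authors' deposited tables list. In each authors' deposited table proteasome genes are listed mainly as higher, with 4 higher and 0 lower in passage 2, 10 and 1 in passage 3, 10 and 0 in passage 4, 7 and 0 in passage 5 and 7 and 1 in passage 6. For conjugation genes the authors' deposited tables hold 5 and 0, 9 and 0, 6 and 0, 8 and 0, and 7 and 1. Genes of the whole table were listed more often as higher too, with 1253 higher and 639 lower, 1729 and 769, 1511 and 495, 1437 and 836, and 1602 and 586 in the authors' deposited tables of passages 2 to 6. Their log2 ratios are on the FPKM scale.

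The classes also differed in their sequence variants against the authors' reference genome. The authors' variant table holds 1555 sites in 167 genes of the system. In the 20S core 8 sites change an amino acid and 66 do not, a ratio of 0.121, and 10 of 15 core genes have no site that changes one. The ratio was 0.159 in the 19S particle (11 and 69 sites), 0.235 in cullins and their regulators (16 and 68), 0.3 in E2 enzymes (18 and 60) and 0.356 in deubiquitinating enzymes and SUMO proteases (57 and 160). In F-box genes it was 0.699 (207 and 296 sites), and 2 of 53 F-box genes with a site had none that changes an amino acid. All genes of the table had a ratio of 0.378 (21469 and 56771 sites). Sites in 1 strain share its descent, so no test was made.

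In passage 1 few sites of the system were mixed, that is, held reads of both alleles by the authors' genotype codes. They were 3.57%, 3.45%, 3.27%, 3.85% and 3.55% of typed sites in passages 2 to 6 and 0.945% in passage 1, where all genes had 2.84% to 4.12% in passages 2 to 6 and 0.747% in passage 1. For 39 sites in 11 genes of the system, passage 1 had at least 95% of reads of 1 allele, a later library was mixed and each library had at least 10 reads. This choice makes passage 1 low, and the values are a description. In PRE3 (CCM_08753) the other allele, at 2 sites that change no amino acid, took 0, 38.4, 11.5, 64.96, 43.4 and 72.96% of reads in passages 1 to 6. These shares rest on 1054 to 1190 reads in passages 2 to 6 and 383 in passage 1, where 0 reads allow up to 0.783% (3 reads); the Wilson 95% interval was 9.69% to 13.5% in passage 3 and 70.3% to 75.5% in passage 6, for counting error only. In the E2 gene CCM_07737 (9 sites) it took 0, 40.4, 13.5, 59.9, 43.1 and 72.8%, and in the F-box gene CCM_08635 (11 sites) 0.23, 17.9, 7.34, 48.4, 31.7 and 59.9%.

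Over 2420 such sites in 556 genes of the table the share was 0.4, 29.4, 9.43, 57.7, 39.3 and 64.9% in passages 1 to 6. The genes of the system thus followed the order over these 556 genes, with passage 3 the lowest of the later libraries in 10 and passage 6 the highest in 8 of the 11. The 11 genes share a few scaffolds, and CCM_07736 and CCM_07737 are neighbours, so they are not separate observations. The PRE3 counts that rose in the later passages therefore came from a mixture of alleles there and, at these sites, from 1 allele in passage 1, and the part of this in the result was not tested.

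**Figure D5:**
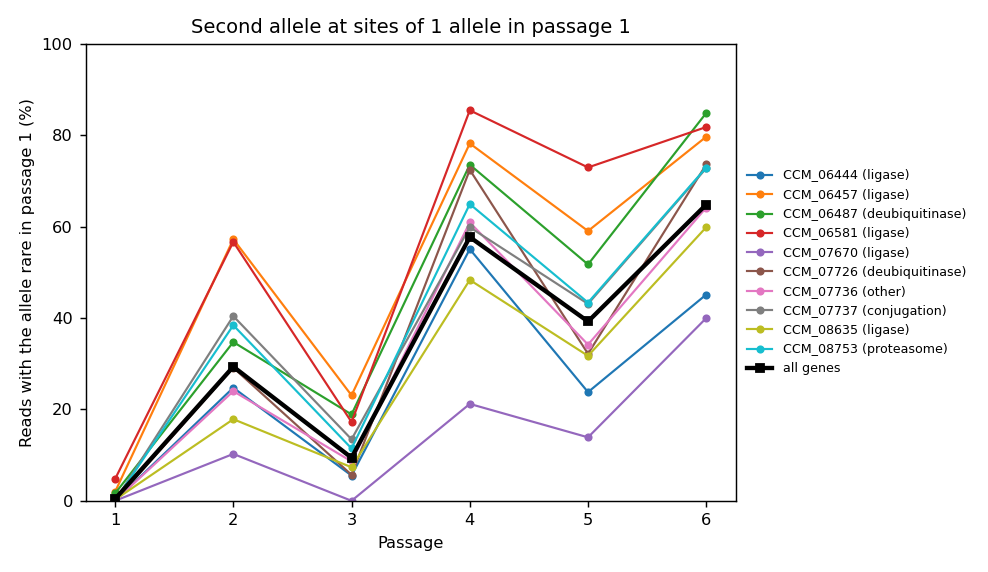
Share of reads (%) with the allele that was rare in passage 1, by passage, at sites with at least 95% of 1 allele in passage 1 and a mixture later; coloured lines are 10 genes of the system and the black line is all 556 genes with such sites. Passage 3 is the lowest later library in all 10 genes and passage 6 the highest in 8, with 9.43% and 64.9% over all genes; CCM_07552, with 1 site and 9.09% in passage 2 alone, is not drawn.

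The authors' table of RNA editing events, called from the variants, lists 16 genes of the system. It holds 35 to 43 events of the system in passages 2 to 6 and 6 in passage 1, and 1401 to 2511 events of all genes in passages 2 to 6 and 208 in passage 1. Of the 11 genes with a second allele, 10 are among the 16 that the editing table lists, the exception being CCM_07552, and PRE3 has 2 listed events in each later library and none in passage 1. Splice junction reads of classes other than known junctions made up 29.4% to 31.1% of the system's junction reads in passages 2 to 6 and 30.1% in passage 1, against 18.8% to 19.2% and 19.01% for all genes. The system's share rests largely on CCM_01358 and CCM_00487. In passage 1 these held 13912 and 11883 of its 47501 such reads. By class, the passage 1 share was 23.1% in the proteasome, 35.2% in ligases and 29.5% in activating and conjugating enzymes. It was 40.4% in the others and 11.5% in deubiquitinating enzymes and SUMO proteases, so the gap to all genes did not hold in every class. Such a junction was found in 51.2% of the system's genes with junction reads in passage 1, against 39.5% of all such genes. The meaning of the class words is not stated in the files or labels.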

How the data were processed

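RNA was measured by sequencing in 6 libraries of Cordyceps militaris mycelium, 1 for each of passages 1 to 6. Poly(A) RNA was selected and fragments of about 200 bases were kept, per the labels' protocols. The submitters' processing notes name FastQC, Bowtie, TopHat2, Cufflinks and edgeR; versions, genome build, counting settings and the use of strand are not stated there, in the labels or in the files, so reads of overlapping or antisense genes cannot be told apart and near-identical family copies are uncertain.

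The deposited expression table holds FPKM and expected counts per gene and library, with the product text, per the file headers. Of the expected counts, 36 to 50 values per library were not whole, and all were rounded. Totals were 9740171, 13813999, 10930180, 12915930, 12286766 and 13609435 in passages 1 to 6, with 9254 to 9449 genes counted. The authors' deposited comparison tables hold log2 ratios of FPKM and p-values with their FDR from 1 library against 1. Deposited variant, editing and splicing tables hold genotype codes with read numbers, editing fractions and counts of junction reads. Not used were 60 per-sample columns of these tables.

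Passages 2 to 6 were tested against passage 1 with edgeR 4.0.16 (R 4.3.3; filterByExpr, TMM factors 0.869 to 1.06, quasi-likelihood test, Benjamini-Hochberg adjusted p under 0.05) over all genes, and trends over passages 1 to 6 and 2 to 6 likewise. Alternatives were DESeq2 1.42.0, limma 3.58.1 on log2(FPKM + 1) and log2(FPKM + 0.1), DESeq2 size factors within edgeR, no filter, each later library left out, and offsets with a lowess trend on gene length (span 0.3) removed, with length inferred from FPKM and counts of at least 20. The SE given with an edgeR difference is the size of the log2 difference divided by the square root of the test's F statistic. It is therefore no measure of spread separate from the test. In the 2-fold description log2 CPM had a prior count of 1. Tables were made with Python 3.11.15, pandas 2.3.3, numpy 2.4.6 and scipy 1.17.1. Tested on simulated data for the later passages against passage 1 (8827 genes), the main test recovered 62 of 100 genes changed 2-fold (log2 of 1) and 95 of 100 changed by a log2 of 2, with 4 false calls. In the simulated trend over passages 1 to 6 (8732 genes) 99 of 100 genes changed by 0.5 log2 units a passage were called, with 7 false calls, and over passages 2 to 6 (8685 genes) 95 of 100, with 12 false calls. The simulated counts had the same dispersion (spread beyond counting error) in all genes, no trend on gene length and no added error in passage 1. These numbers are therefore not error rates for the real libraries.

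Roles came from product text, and of the members 173 locus tags were found in the RefSeq gene table. The members and lists were chosen with earlier results of these data known. Named were, per role, the called genes at or above a mean of 1 FPKM by size of difference (up to 8 in the proteasome, 8 ligases, 6 deubiquitinating enzymes, 5 of conjugation, 4 others), the catalytic core subunits, ubiquitin, the most abundant gene of each role and 3 further genes 2-fold apart in the most passages. Other genes named in the text complete a complex or a small count and were chosen after their values were seen, as were the removal of a trend on the RefSeq gene span, the length classes, the counts without genes of uncertain product text and passage 6 against passages 2 to 5. Read shares carry counting error only, and p-values measure the spread between these libraries.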

Additional observations from a re-analysis of the deposited data

Results flagged for a closer look

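Each of 40 named genes was checked for a library far from the others among passages 2 to 6, by the gap to its nearest neighbour over the whole range of log2 CPM with TMM scaling, with 0.71 as the critical value; chance alone gives about 1 such library in 20 groups. The check marked 3 genes. The E2 gene CCM_05338 stood apart in passage 5, where it was highest at 33.6 CPM against 20.2 to 22.98 CPM in the other later passages (gap over range 0.746). PRE2 (CCM_02349), the chymotrypsin-like core subunit, stood apart in passage 2, where it was lowest of the later libraries at 165 CPM against 191 to 199 CPM (0.79). The ubiquitin-like gene CCM_04304 stood apart in passage 6, at 174 CPM against 50.3 to 69.1 CPM in passages 2 to 5 (0.744), with 168 CPM in passage 1. The deposited FPKM are scaled differently and give other ratios.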

How the results depend on the processing

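Without 1 later library, the members that rose numbered 12 to 32 and those that fell 19 to 29 (25 each with all libraries): 6 to 13 and 4 to 5 in the proteasome, 4 to 9 and 0 to 1 in conjugation, 0 to 5 and 7 to 10 among ligases, 1 to 2 and 6 to 8 among deubiquitinating enzymes and SUMO proteases and 1 to 3 and 2 to 5 among the others; both trends stayed at 0. The low ends came without passage 3, 4 or 5, and 5 ligases rose and 5 others fell without passage 6. With the length trend removed, 11 members rose, as did 5 proteasome genes (3 fell), 2 in conjugation (2 fell), 0 deubiquitinating enzymes (4 fell) and 0 others; with the RefSeq gene span, an alternative chosen after seeing the data, 6 proteasome genes, 2 in conjugation (1 fell), 7 ligases, 1 deubiquitinating enzyme (3 fell) and 1 other rose. With limma on FPKM, at either pseudocount, 56 members rose and 16 fell, with 24 rising in the proteasome, 13 in conjugation, 9 among ligases (6 fell) and 7 among the others, and 4 deubiquitinating enzymes falling. DESeq2 called 4 others in each direction, and ligases without F-box genes had 0 rising and 1 falling. On the 2-fold scale, removing the length trend left 7 higher and 7 lower in passage 2, 9 higher in passage 5 and 7 in passage 6. The FPKM as deposited gave 8 lower in passage 2, 29 higher and 10 lower in passage 3, 20 and 6 in passage 4 and 23 and 6 in passage 6. Signs that reversed belonged to genes without a call: with limma CCM_02252 at 0.121 and 0.122 and CCM_06487 at 0.109 and 0.110 with the 2 pseudocounts, with the length trend removed CCM_06819 at -0.089, CCM_01358 at -0.156 and CCM_00487 at -0.177, and with the RefSeq span CCM_06819 at -0.120 and CCM_00487 at -0.201. Among 40 named genes, DESeq2 size factors and no filter changed no call, and removing the length trend ended 14. Apart from the length and scale alternatives, whose construction is given above, the cause was not tested. No paired analysis was possible because each passage has 1 library and the labels give no replicate numbers. With a single library of passage 1, its own error could not be measured, and genes near 0 carry little information.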
